A study of Mus musculus with 4 samples.

Results

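The receptor tyrosine kinase genes Erbb4, Erbb3 and Egfr and the neuregulin genes Nrg1, Nrg2, Nrg3 and Nrg4 were examined in accessible chromatin of sorted forebrain interneuron nuclei. They were chosen by name, as 7 of 21938 protein-coding genes. Peaks of the 4 libraries that overlapped each other were merged into 185260 regions, of which 283 lay in the body of these genes or within 2 kb upstream of their starts. A total of 38 of the 283, among 46698 in the whole series, held a peak of every library and are called common regions. Single-nucleus ATAC-seq, which counts the cut sites that a transposase leaves in open chromatin, was run on GFP-positive nuclei of mice at postnatal day 30 (P30). Every library carried the genotype Dlx6aCre;Sun1/sfGFP, in which Cre driven from Dlx6a, a gene of forebrain GABAergic neurons and their precursors, switches on a nuclear envelope GFP. The 2 groups were cortex and hippocampus, with 2 libraries each. No library lacked Cre, and the labels did not say whether libraries of a group came from separate animals, so that p-values measure only the spread between these libraries.

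ErbB receptors sit in the cell membrane, pair up when a ligand binds and then phosphorylate one another. Neuregulins are membrane-tethered or shed ligands with an EGF-like domain. Erbb4 binds neuregulins directly and has an active kinase, Erbb3 binds them but has little kinase activity of its own, and Egfr binds EGF and related ligands. In the cortex and hippocampus Erbb4 is found mainly in interneurons, where neuregulin signalling is known for its part in the migration and wiring of parvalbumin cells. Erbb3 in the brain is best known from oligodendrocytes and glial precursors.

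Accessible regions of these genes were mostly intronic. Of the 283 regions, 266 (94.0%) lay in introns, and the 38 common regions comprised 29 in introns, 8 at annotated transcript starts and 1 over a coding exon. The 300 bases around the midpoint of the shared peak stretch are printed for the 7 intronic common regions that the comparisons below turn on most. All are on the GRCm38 reference and written 5′ to 3′ on the strand of the gene, and capitals mark matches to TGANTCA, the AP-1 motif, or to the Mef2 core.
Erbb4 intron 20, 993.5 kb from the start, chr1:68114450-68114749, minus strand: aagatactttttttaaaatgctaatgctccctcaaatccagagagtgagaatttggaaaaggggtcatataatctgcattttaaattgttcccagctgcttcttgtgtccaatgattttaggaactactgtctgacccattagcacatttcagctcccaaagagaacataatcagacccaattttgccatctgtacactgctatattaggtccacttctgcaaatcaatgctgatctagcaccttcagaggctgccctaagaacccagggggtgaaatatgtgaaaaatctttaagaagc
Erbb4 intron 25, 1061.1 kb from the start, chr1:68046777-68047076, minus strand: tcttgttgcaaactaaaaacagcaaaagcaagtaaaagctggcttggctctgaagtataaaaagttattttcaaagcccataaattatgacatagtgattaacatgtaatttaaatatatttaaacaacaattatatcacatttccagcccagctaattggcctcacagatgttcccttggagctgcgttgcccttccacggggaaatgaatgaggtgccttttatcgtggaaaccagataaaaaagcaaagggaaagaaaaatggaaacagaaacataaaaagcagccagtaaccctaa
Egfr intron 1, 30.5 kb from the start, chr11:16782527-16782826, plus strand: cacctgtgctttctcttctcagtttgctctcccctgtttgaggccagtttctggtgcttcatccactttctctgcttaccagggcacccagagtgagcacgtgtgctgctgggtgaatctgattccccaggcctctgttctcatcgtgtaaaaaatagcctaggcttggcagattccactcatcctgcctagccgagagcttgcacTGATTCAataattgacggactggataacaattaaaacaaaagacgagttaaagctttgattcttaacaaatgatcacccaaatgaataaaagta
Egfr intron 1, 48.5 kb from the start, chr11:16800504-16800803, plus strand: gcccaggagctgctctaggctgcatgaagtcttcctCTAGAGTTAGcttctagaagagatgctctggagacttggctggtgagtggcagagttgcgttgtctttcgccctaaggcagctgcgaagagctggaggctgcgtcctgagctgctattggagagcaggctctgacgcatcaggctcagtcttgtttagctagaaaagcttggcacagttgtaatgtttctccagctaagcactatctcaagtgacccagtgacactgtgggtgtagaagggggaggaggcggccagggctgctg
Nrg3 intron 1, 431.8 kb from the start, chr14:39041165-39041464, minus strand: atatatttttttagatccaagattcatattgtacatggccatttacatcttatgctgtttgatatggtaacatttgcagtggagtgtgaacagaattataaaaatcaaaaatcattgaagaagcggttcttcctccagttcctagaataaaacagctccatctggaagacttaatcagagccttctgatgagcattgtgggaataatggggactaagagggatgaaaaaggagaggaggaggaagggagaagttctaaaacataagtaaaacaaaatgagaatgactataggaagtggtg
Nrg3 intron 1, 433.8 kb from the start, chr14:39039122-39039421, minus strand: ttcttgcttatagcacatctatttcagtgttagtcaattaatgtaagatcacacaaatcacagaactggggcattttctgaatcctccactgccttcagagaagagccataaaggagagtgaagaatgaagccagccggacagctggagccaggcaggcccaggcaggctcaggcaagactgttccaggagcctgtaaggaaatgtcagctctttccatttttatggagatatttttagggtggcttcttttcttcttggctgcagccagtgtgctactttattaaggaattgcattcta
Nrg3 intron 3, 925.6 kb from the start, chr14:38547324-38547623, minus strand: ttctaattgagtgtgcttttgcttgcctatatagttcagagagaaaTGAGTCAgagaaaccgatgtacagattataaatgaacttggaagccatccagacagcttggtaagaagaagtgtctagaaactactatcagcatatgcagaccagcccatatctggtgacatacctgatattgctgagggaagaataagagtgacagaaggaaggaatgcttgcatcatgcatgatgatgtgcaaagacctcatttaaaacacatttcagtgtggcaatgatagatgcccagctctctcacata

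Motif letters were counted on both strands of such windows in all 38 common regions of the genes and in all 46698 common regions. TGANTCA was present in 10.5% of the windows of the genes and in 13.1% of all windows. The Mef2 core was present in 5.26% and 4.80%, the homeodomain core TAATTA in 2.63% and 6.03%, and the nuclear receptor hexamer AGGTCA in 2.63% and 12.2%. The E-box CANNTG was present in 78.9% and 80.4%, and the palindromic NFI motif was in none of the 38 windows and in 0.0321% of all. The median GC content was 51.0% in the windows of the genes and 52.3% in all windows. No motif held a clearly larger share in these genes than in all common regions, and no test was made of the shares.

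The libraries held between 2355 and 5576 nuclei and between 32005984 and 117290059 cut sites in peaks, and peaks had been called in each library on its own. Cortex 2 was the shallowest, with 61965 peaks against 98419 to 157220 in the others, and 236 of the 283 regions of these genes held no peak of cortex 2. Pairs of libraries shared 11 to 47 barcodes, and no doublet caller was run. The GABAergic neuron genes Gad1, Gad2, Slc32a1, Dlx1, Dlx5 and Dlx6 were above 0 in every library. The excitatory list summed to between 40.0 and 68.7 CPM (cut sites per 1000000 in peaks), the astrocyte list to between 168 and 210.1 CPM, the microglia list to between 204 and 265 CPM and the striatal projection list to between 83.4 and 133 CPM. The oligodendrocyte lineage list summed to between 203 and 306 CPM.

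Per kb of gene, Nrg2 had the highest level of the 7 genes, with 1.19 ± 0.11 CPM per kb (mean ± SD over 4 libraries), and no other gene reached that value in any library. Erbb3 with 0.553 ± 0.424, Egfr with 0.521 ± 0.075 and Nrg4 with 0.376 ± 0.077 CPM per kb followed, and these neighbours in the order overlapped. The 3 longest genes came last, Erbb4 with 0.157 ± 0.068, Nrg3 with 0.139 ± 0.049 and Nrg1 with 0.126 ± 0.029 CPM per kb, and they did not differ beyond their spread. These sums took in each library's own peaks, whose number differed between libraries. Erbb4 was lowest in cortex 2, with its fewest peaks, and highest in hippocampus 1, with its most (0.070 and 0.236 CPM per kb). Nrg2 and Egfr were instead highest in cortex 2, where they also had their fewest peaks (1.29 and 0.582 CPM per kb). The part of peak number in these levels was not tested.

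**Figure D1:**
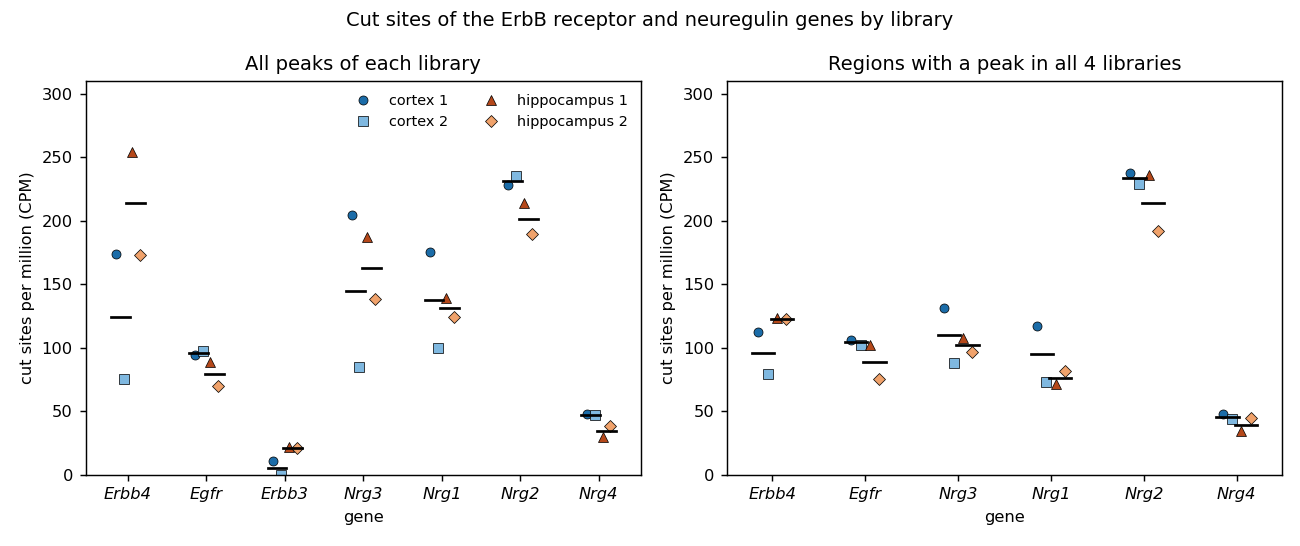
Cut sites in CPM by gene and library, over all peaks of each library (left) and over regions with a peak in all 4 libraries (right, normalised), where symbols are libraries and short lines are the mean of the 2 cortex or 2 hippocampus libraries. Erbb4 spread from 75.6 to 254 CPM over all peaks and from 79.2 to 123 CPM over common regions, and Erbb3 had no common region.

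The first comparison asked whether the genes differed in accessibility between cortex and hippocampus. Erbb4 had the largest positive estimate, at 112 and 79.2 CPM in cortex 1 and 2 and at 123 and 123 CPM in hippocampus 1 and 2 over its common regions. The difference was 0.36 ± 0.20 on the log2 scale (hippocampus minus cortex, ± SE, adjusted p = 0.9999, edgeR quasi-likelihood test with Benjamini-Hochberg adjustment). The other 5 genes with common regions had negative estimates, Nrg1 of -0.32 ± 0.24, Egfr of -0.24 ± 0.19, Nrg4 of -0.22 ± 0.18, Nrg2 of -0.12 ± 0.20 and Nrg3 of -0.10 ± 0.22. The groups did not overlap for Erbb4 and for Egfr, in opposite directions. For Egfr cortex 2 and hippocampus 1 were nearly even, at 102.3 and 101.9 CPM. The share of all genes without overlap is not given here. None of the 6 genes passed the test, none had an unadjusted p below 0.05, and DESeq2 called none of them. In the whole series edgeR called 0 of 14645 genes (0%), 513 (3.50%) had an unadjusted p below 0.05, and DESeq2 called 21. In sums over nuclei, fewer nuclei with open chromatin and fewer cut sites per nucleus cannot be told apart.

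The 38 common regions gave the same count. edgeR called 0 of them and 0 of 46698 in all (0%), 1 of the 38 and 3803 in all (8.14%) had an unadjusted p below 0.05, and DESeq2 called 0 of the 38 and 352 in all. The one region was in intron 25 of Erbb4 and is described with that gene. A further set, chosen after seeing the data, took the 77077 tested regions with a peak in cortex 1 and both hippocampus libraries and left cortex 2 out. There edgeR called none (0%), and 9446 regions (12.3%) and 8 of 90 in these genes had an unadjusted p below 0.05, under the assumption that the lone cortex library varied like the hippocampus libraries.

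The second comparison set nuclei against each other by the accessibility of 3 interneuron marker genes. Pvalb encodes the calcium-binding protein parvalbumin, Sst encodes the neuropeptide somatostatin, and Adarb2 encodes an RNA editing enzyme relative that marks interneurons of caudal ganglionic eminence origin. A nucleus was placed in a class when, after thinning to 4000 cut sites in common regions, it had at least 2 cut sites in the common regions of exactly 1 of these genes. The classes held 508 Pvalb-high, 177 Sst-high and 503 Adarb2-high nuclei, down to 15 Sst-high nuclei in hippocampus 2. A wider gate without thinning, which ranked nuclei by the marker's share of their cut sites and took up to 20% of a library, held 1601, 866 and 1799 nuclei. It also asked for at least 2 cut sites in the marker, a count not scaled to depth. Its Sst-high class took 15.6% of the kept nuclei of cortex 1, the deepest library. In cortex 2, hippocampus 1 and hippocampus 2 it took 4.90%, 4.71% and 3.95%. Sums per class and library, 12 in all, were fitted with library as a block, so that nuclei were never counted as replicates.

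The markers and the lists of other cell types were checked in the classes. With thinning Pvalb stood at 220 to 324 CPM in Pvalb-high nuclei against 0 to 62.0 CPM in the other classes. Sst stood at 164 to 336 against 0 to 19.9 CPM and Adarb2 at 162 to 342 against 10.3 to 33.8 CPM. With the wider gate these were 155 to 237 against 2.04 to 36.6 CPM for Pvalb and 114 to 249 against 0.754 to 5.14 CPM for Sst. For Adarb2 they were 128 to 252 against 3.22 to 14.8 CPM. The highest values outside a marker's own class were there all in cortex 1. The gates themselves fixed these differences. Of the 8 genes in a list for interneurons of the medial ganglionic eminence (MGE-like), 3 were higher in Pvalb-high and 3 in Sst-high than in Adarb2-high nuclei with thinning, and 6 and 3 with the wider gate. Of the caudal (CGE-like) list, 2 and 1 of 6 tested genes were lower than in Adarb2-high nuclei with thinning, and 6 and 4 of 7 with the wider gate. Of the 6 GABAergic neuron genes named above, none passed with thinning. In the wider gate Gad1 was higher in Pvalb-high than in Sst-high nuclei, and Gad1 and Dlx1 were lower in Sst-high than in Adarb2-high nuclei (median over the 6 of -0.14, and -0.15 with thinning). The 6 summed to 610 to 907, 597 to 855 and 651 to 980 CPM in Pvalb-high, Sst-high and Adarb2-high nuclei there, and their part in the differences below was not tested. Of 3 tested microglia genes, 1 was higher in Sst-high than in Adarb2-high nuclei with thinning, and with the wider gate 2 were higher in each of Pvalb-high and Sst-high than in Adarb2-high nuclei. The list summed to 212 to 268, 198 to 228 and 187 to 246 CPM in Pvalb-high, Sst-high and Adarb2-high nuclei of the wider gate, and its part in the differences below was not tested. No gene of the excitatory, striatal projection, astrocyte, oligodendrocyte lineage or endothelium lists passed between classes with either gate.

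**Figure D2:**
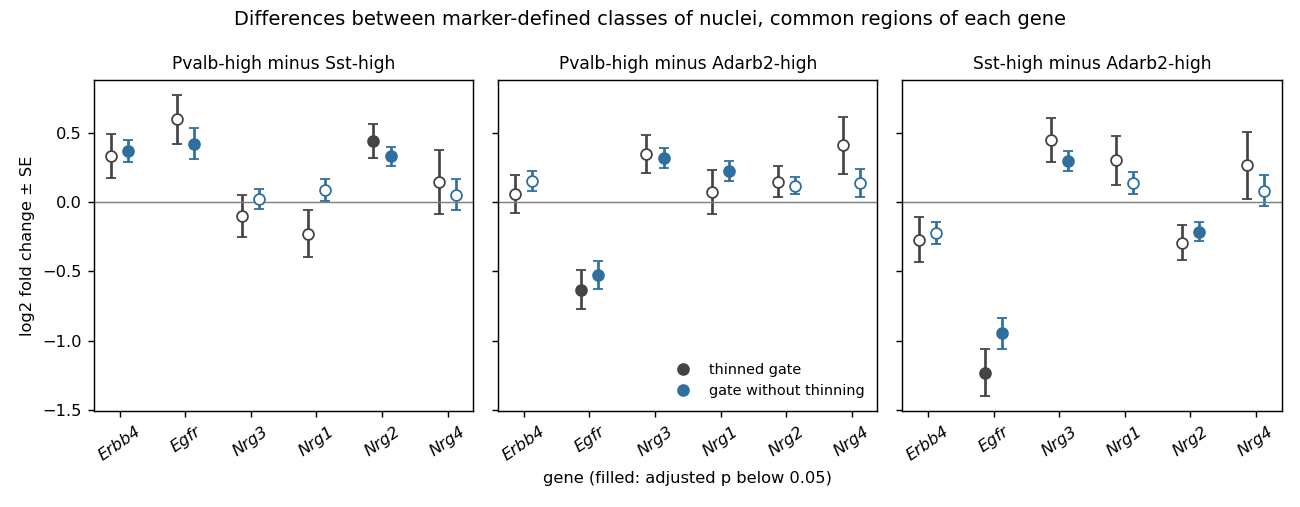
Log2 fold changes ± SE between classes of nuclei for the 6 genes with common regions, in 3 contrasts, with the thinned gate (grey) and the gate without thinning (blue), filled where the adjusted p was below 0.05. Egfr lay below 0 against Adarb2-high nuclei in both gates, at -0.63 for Pvalb-high and -1.23 for Sst-high nuclei with thinning.

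Between classes, edgeR called 1 of the 6 genes in each contrast with the thinned gate. That was Nrg2 in Pvalb-high against Sst-high nuclei (1.33% of all 14268 genes tested were called), Egfr in Pvalb-high against Adarb2-high nuclei (1.00%) and Egfr in Sst-high against Adarb2-high nuclei (1.78%). The wider gate called 3 of 6 in each contrast, where 10.8%, 11.7% and 10.0% of 14643 genes were. Over each library's own peaks, also chosen after seeing the data, 1 of 7 genes was called in each contrast with the thinned gate (1.14%, 0.626% and 1.44% of all) and 3, 2 and 4 with the wider gate (8.60%, 8.35% and 8.27%). Over regions, the thinned gate called 0 of 31 tested in Pvalb-high against Sst-high (2.52% of all), 0 of 31 in Pvalb-high against Adarb2-high (1.60%) and 5 of 31 in Sst-high against Adarb2-high nuclei (4.41%). DESeq2 gave the same 0, 0 and 5, and 7 and 5 of the 31 had an unadjusted edgeR p below 0.05 in the first 2 contrasts. The shares of all regions with such a p are not given here, so these 2 counts are a description only. The wider gate called 14, 7 and 13 of 38 regions, where 17.8%, 18% and 20.2% of all regions were called. Regions of 3 libraries, chosen after seeing the data, gave 0, 0 and 3 of 51 with the thinned gate (0.747%, 0.569% and 2.02% of all) and 11, 13 and 25 of 89 with the wider gate (12.4%, 14.2% and 17.6% of all).

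The class differences themselves were compared between hippocampus and cortex. edgeR called 0 of the 6 genes and 0 of 14268 in all (0%) in each of the 3 contrasts, and none of the 6 had an unadjusted p below 0.05, against 786 (5.51%), 316 (2.21%) and 850 (5.96%) of all genes. The estimate for Erbb4 in Sst-high minus Adarb2-high nuclei, hippocampus minus cortex, was 0.47 ± 0.33. DESeq2 was not run on this term.

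Erbb4 (chr1:68032186-69108059, minus strand) spans 1076 kb and held 95 of the 283 regions, 93 of them in introns. The number of its peaks followed the library closely, with 50 of the 95 regions holding a peak in cortex 1, 4 in cortex 2, 84 in hippocampus 1 and 29 in hippocampus 2. A total of 41 regions held a peak of hippocampus 1 alone and 91 held none of cortex 2. Over each library's own peaks Erbb4 stood at 174 and 75.6 CPM in cortex and at 254 and 173 CPM in hippocampus, and there the groups overlapped. On that measure the difference was 0.84 ± 0.53 (adjusted p = 0.9999, 0.00613% of 16326 genes called). Over common regions the estimate was 0.63 without cortex 1 and 0.14 without cortex 2, and did not pass in either case.

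All 4 common regions of Erbb4 had positive hippocampus estimates. The region at its start (chr1:69105036-69108958) carried most of the cut sites, with 68.5 and 45.9 CPM in cortex and 65.0 and 76.2 CPM in hippocampus, and its groups overlapped. The region in intron 25 (chr1:68046350-68047591) stood at 20.4 and 22.6 CPM in cortex and at 30.2 and 33.1 CPM in hippocampus. Its difference was 0.56 ± 0.22 (unadjusted p = 0.046, adjusted p = 0.60), the smallest p among the 38 regions. Of the regions in intron 20, the one at 993.5 kb (chr1:68114193-68115096) stood at 10.2 and 8.49 against 12.2 and 14.8 CPM, and the one at 987.5 kb (chr1:68120265-68121010) at 7.21 and 5.92 against 7.82 and 8.10 CPM. In these 3 intronic regions both hippocampus libraries lay above both cortex libraries, without passing the test. Among the 38, the groups also lay apart in regions of Egfr, Nrg1, Nrg2, Nrg3 and Nrg4, some higher and some lower in hippocampus. The share of all common regions whose groups lay apart is not given here. Among 24 regions of the 3-library set, 20 had positive estimates against the lone cortex library. The share of all regions of that set with a positive estimate is not given here.

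Between classes, Erbb4 common regions stood at 106, 83.8, 152 and 135 CPM in Pvalb-high nuclei of cortex 1, cortex 2, hippocampus 1 and hippocampus 2. Sst-high nuclei had 79.8, 70.3, 118 and 123 CPM and Adarb2-high nuclei 114, 97.4, 131 and 109 CPM in the same order. Pvalb-high exceeded Sst-high nuclei in 4 of 4 libraries, though the ranges overlapped across libraries. The difference was 0.33 ± 0.16 (adjusted p = 0.42) with the thinned gate and 0.37 ± 0.08 (adjusted p = 0.0011) with the wider gate. Over all of each library's own peaks, a choice made after seeing the data, the wider gate gave 0.52 ± 0.07 for Pvalb-high minus Sst-high (adjusted p = 1.87e-05, 8.60% of all genes called) and -0.48 ± 0.07 for Sst-high minus Adarb2-high nuclei (adjusted p = 3.55e-05, 8.27%). Over common regions Sst-high minus Adarb2-high nuclei did not pass in either gate. The means there were 97.9 against 113 CPM with thinning and 91.6 against 107 CPM with the wider gate. Pvalb-high and Adarb2-high nuclei did not pass in either gate, at 0.06 ± 0.14 and 0.15 ± 0.07, and the estimate changed sign under several settings.

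Regions of Erbb4 followed different classes. With the wider gate, the region at 993.5 kb stood at 14.3, 13.5, 18.6 and 21.9 CPM in Pvalb-high nuclei. It stood at 4.83, 3.37, 10.7 and 7.10 CPM in Sst-high and at 10.2, 6.62, 8.10 and 15.0 CPM in Adarb2-high nuclei. Pvalb-high nuclei were highest in every library, with differences of 1.41 ± 0.26 (adjusted p = 0.00016) over Sst-high and 0.76 ± 0.23 (adjusted p = 0.017) over Adarb2-high nuclei. The intron 25 region at 1061.1 kb was instead highest in Adarb2-high nuclei, at 31.0, 23.4, 38.5 and 34.3 CPM, against 12.9, 8.09, 24.4 and 26.2 CPM in Sst-high nuclei. That difference was -0.90 ± 0.17 for Sst-high (adjusted p = 0.00017) and -0.45 ± 0.15 for Pvalb-high nuclei (adjusted p = 0.036). With the thinned gate these 4 differences kept their direction and none passed.

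**Figure D3:**
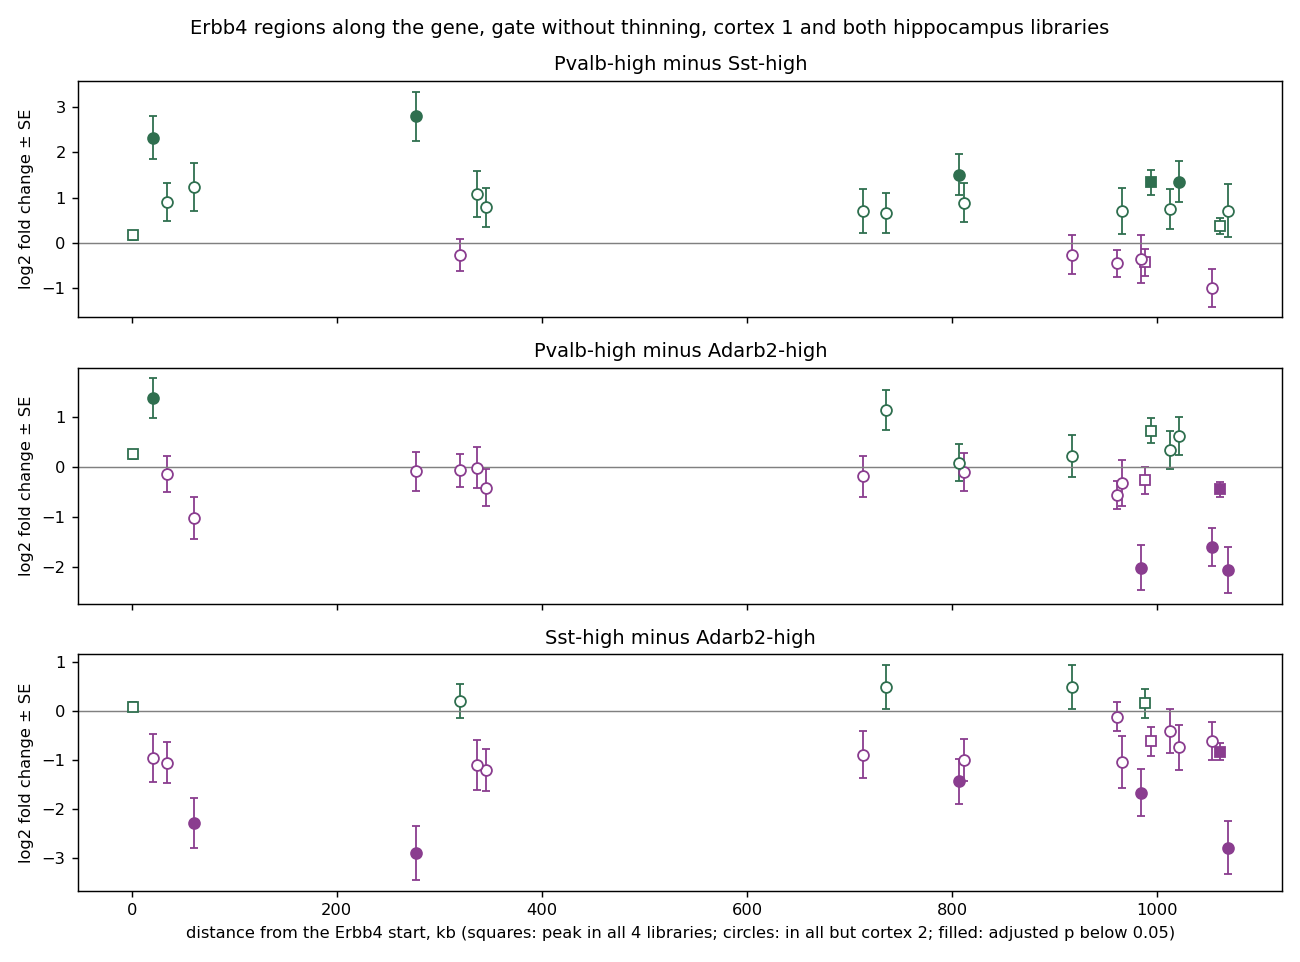
Log2 fold change ± SE of each of 23 tested Erbb4 regions against its distance from the gene start in kb, for 3 class contrasts with the gate without thinning in cortex 1 and both hippocampus libraries, where squares hold a peak in all 4 libraries and filled symbols had an adjusted p below 0.05. All 5 called regions were higher in Pvalb-high than in Sst-high nuclei, and all 6 called regions were lower in Sst-high than in Adarb2-high nuclei.

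In the 3-library set with the wider gate, 17 of 23 Erbb4 regions were positive in Pvalb-high minus Sst-high nuclei. In Sst-high minus Adarb2-high nuclei 18 of 23 were negative. The shares of all 76778 tested regions with these signs are not given here, so the counts are a description of Erbb4 only. The region in intron 1 at 20.8 kb (chr1:69087081-69087533) stood at 5.48, 9.85 and 9.62 CPM in Pvalb-high nuclei of cortex 1, hippocampus 1 and hippocampus 2, and at 1.25, 2.25 and 1.87 CPM in Sst-high nuclei, a difference of 2.33 ± 0.47 (adjusted p = 0.0023). The region in intron 1 at 277.1 kb (chr1:68830756-68831191) was near 0 in Sst-high nuclei, at 0.623, 0.642 and 0 CPM, and stood at 4.67, 3.94 and 1.86 CPM in Pvalb-high and 3.37, 5.11 and 2.69 CPM in Adarb2-high nuclei. A region near the other end of the gene over an untranslated exon, at 1068.5 kb (chr1:68039215-68039839), was highest in Adarb2-high nuclei, at 8.04, 9.66 and 5.50 CPM against 0.692, 4.06 and 2.19 CPM in Pvalb-high nuclei and 0.560, 3.85 and 0 CPM in Sst-high nuclei. These 3 regions were picked after their values were seen. With the thinned gate, 8 Erbb4 regions of this set could be tested and none passed in any contrast.

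The genes whose pattern over the 12 class sums was most like that of Erbb4, by Pearson correlation of log2(CPM + 1) after removing library means, were Pkdcc (r = 0.96), Srgap1 (r = 0.93) and Col26a1 (r = 0.92) among 14267 other genes. Of the other members, Egfr reached 0.47, Nrg2 0.44, Nrg4 0.14, Nrg3 -0.22 and Nrg1 -0.35. The sums share libraries and depth, and the values are a description.

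Egfr (chr11:16752203-16918158, plus strand), the receptor of EGF and transforming growth factor alpha, spans 166 kb and held 25 regions, 8 of them common. It stood at 106 and 102 CPM in cortex and 102 and 75.2 CPM in hippocampus. It was the member with the largest class differences. Adarb2-high nuclei stood at 174, 152, 128 and 126 CPM in cortex 1, cortex 2, hippocampus 1 and hippocampus 2. Pvalb-high nuclei had 96.9, 85.7, 99.1 and 95.0 CPM and Sst-high nuclei 78.3, 55.1, 63.4 and 30.8 CPM. With this thinned gate the 3 classes did not overlap across the libraries. With the wider gate Pvalb-high nuclei, at 76.7 to 108 CPM, overlapped both other classes. Sst-high nuclei stood there at 52.1 to 78.7 CPM and Adarb2-high nuclei at 96.0 to 162 CPM, in the same order within 4 of 4 libraries.

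The difference in Egfr was -1.23 ± 0.17 for Sst-high minus Adarb2-high nuclei (adjusted p = 2.6e-07, lower in 4 of 4 libraries) and -0.63 ± 0.14 for Pvalb-high minus Adarb2-high nuclei (adjusted p = 0.0070, lower in 4 of 4). The first held without any 1 library. The second lost its call without cortex 1 (adjusted p = 0.45), cortex 2 (0.068) or hippocampus 1 (0.061), with estimates of -0.53, -0.59 and -0.73. Pvalb-high minus Sst-high gave 0.60 ± 0.18 (adjusted p = 0.061), and with the wider gate it gave 0.42 ± 0.11 (adjusted p = 0.016). The wider gate gave -0.94 ± 0.11 (adjusted p = 2.0e-06) and -0.52 ± 0.10 (adjusted p = 0.00079) for the 2 contrasts with Adarb2-high nuclei. With nuclei thinned to 2000 cut sites, which left 6 to 24 Sst-high nuclei a library, the estimates were -1.36 (adjusted p = 0.065) and -0.80 (adjusted p = 0.83).

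**Figure D4:**
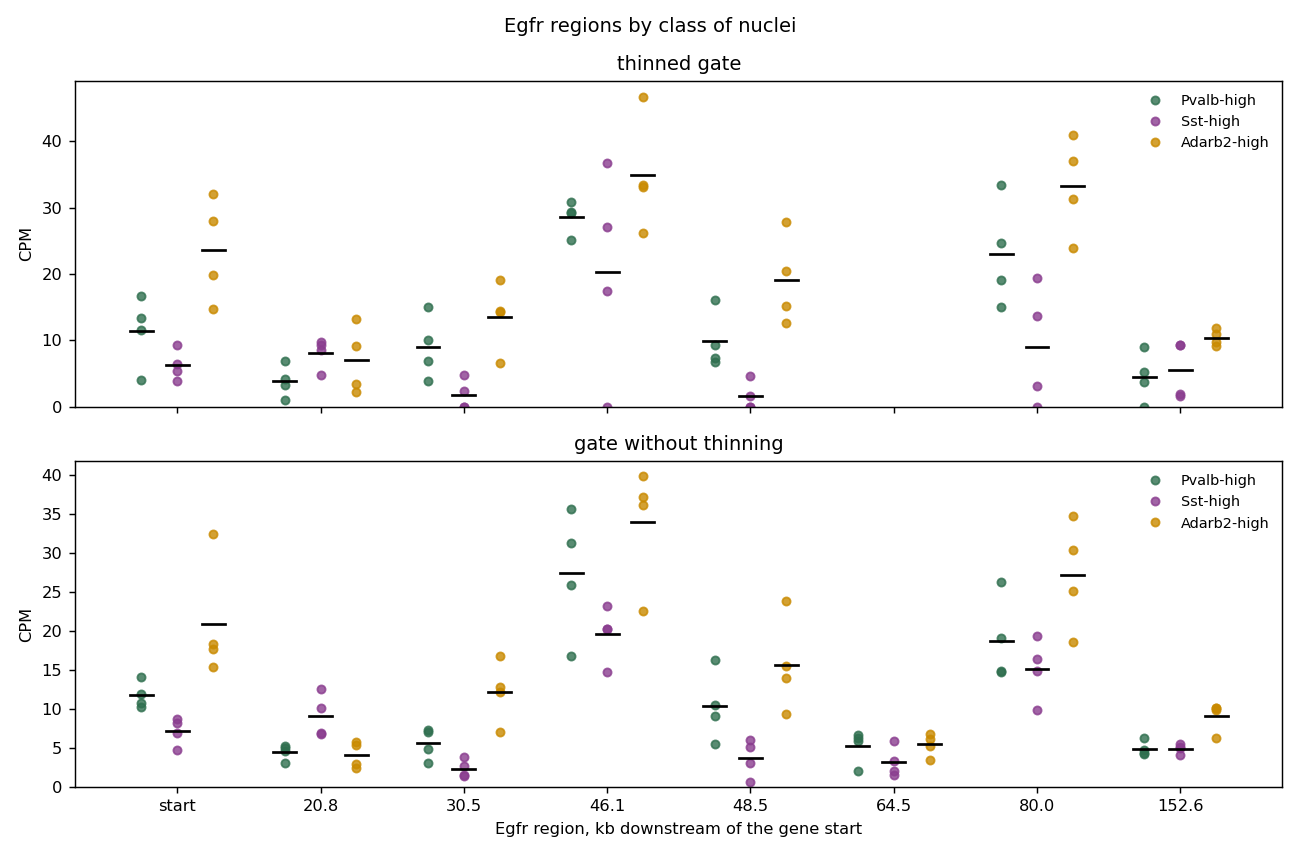
CPM of the 8 common Egfr regions in Pvalb-high, Sst-high and Adarb2-high nuclei, with a point for each of the 4 libraries and a line at their mean, for the thinned gate (top, where the region at 64.5 kb was not tested) and the gate without thinning (bottom). Adarb2-high nuclei had the highest mean in every region shown except that at 20.8 kb, where Sst-high nuclei did with both gates.

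The difference in Egfr was spread over its regions. With the thinned gate, 4 of 7 tested regions passed in Sst-high minus Adarb2-high nuclei. The largest was the intron 1 region at 48.5 kb (chr11:16800264-16801013), with 20.5, 27.8, 15.2 and 12.7 CPM in Adarb2-high and 4.64, 0, 1.59 and 0 CPM in Sst-high nuclei, a fitted difference of -3.00 ± 0.66 (adjusted p = 0.0019). The region at 30.5 kb (chr11:16782430-16783065) stood at 14.2, 6.61, 19.1 and 14.4 against 2.32, 0, 4.78 and 0 CPM (-2.51 ± 0.72, adjusted p = 0.025). The start region (chr11:16751774-16753456) stood at 27.9, 19.8, 14.8 and 32.1 against 5.42, 3.88, 6.37 and 9.28 CPM (-2.00 ± 0.53, adjusted p = 0.013). The region at 80.0 kb (chr11:16831707-16833502) stood at 37.0, 41.0, 23.9 and 31.3 against 19.3, 13.6, 3.19 and 0 CPM (-1.49 ± 0.41, adjusted p = 0.017). In all 4 regions the lowest Adarb2-high library lay above the highest Sst-high library. The call at 48.5 kb held without any 1 library (adjusted p up to 0.046, and -4.50 without cortex 1), whereas those at the start, 30.5 kb and 80.0 kb were each lost without cortex 2 (adjusted p = 0.055, 0.076 and 0.072) and without 1 or 2 of the other libraries.

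The region at 46.1 kb (chr11:16797667-16798884), the highest of the Egfr introns with 27.0, 32.9, 29.6 and 17.3 CPM over all nuclei, differed less, at -0.63 ± 0.32 (adjusted p = 0.32) with thinning and -0.80 ± 0.15 (adjusted p = 0.00016) with the wider gate. In the wider gate 7 of the 8 regions passed in this contrast, 6 lower and 1 higher in Sst-high nuclei. The higher one lay at 20.8 kb (chr11:16772687-16773602), with 10.1, 6.75, 6.86 and 12.6 CPM in Sst-high and 5.31, 5.74, 2.43 and 2.91 CPM in Adarb2-high nuclei, a difference of 1.21 ± 0.33 (adjusted p = 0.0068). Between brain regions the region at 48.5 kb stood at 9.63 and 15.6 CPM in cortex against 9.23 and 6.67 CPM in hippocampus (-0.67 ± 0.36, adjusted p = 0.77).

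Erbb3 (chr10:128567523-128589652, minus strand) is the shortest of the genes at 22.1 kb and had 3 regions, none in an intron and none with a peak in cortex 2. Over own peaks it stood at 10.7 and 0 CPM in cortex and 21.8 and 20.9 CPM in hippocampus, where the floor that 3 counts set in cortex 2 is 0.0937 CPM. The difference was 1.98 ± 2.56 (adjusted p = 0.9999) and did not pass. The start region (chr10:128589496-128590805) had 9.21 CPM in cortex 1, 1.48 CPM in hippocampus 1 and 7.79 CPM in hippocampus 2. Of the regions over coding exons, the one at 2.5 kb (chr10:128586039-128588332) had 1.94, 17.6 and 10.6 CPM and the one at 6.1 kb (chr10:128582899-128584115) had 0.823, 7.16 and 3.86 CPM in the same libraries. Cortex 1 was highest at the start and lowest at both exons, with differences of 2.86 ± 0.49 (unadjusted p = 0.0017, adjusted p = 0.18) and 2.74 ± 0.66 (unadjusted p = 0.0076, adjusted p = 0.23) at the exons, from a lone cortex library.

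Erbb3 did not pass between interneuron classes in either gate, with 7.38, 0, 18.6 and 8.54 CPM in Sst-high and 12.7, 0, 21.2 and 12.2 CPM in Adarb2-high nuclei of the wider gate (-0.48 ± 0.22, adjusted p = 0.23). Between brain regions the astrocyte list moved with Erbb3, at 168 to 176 CPM in cortex and 187 to 210 CPM in hippocampus. The oligodendrocyte lineage list did so too, at 203 to 276 CPM in cortex and 288 to 306 CPM in hippocampus. In cortex 2, Mog, Mag, Sox10 and Olig2 of that list were at 0, and in cortex 1 Sox10 was. The part of astrocyte or oligodendrocyte lineage nuclei in the Erbb3 values between brain regions was not tested. Within libraries, nuclei high in that list had 20.1 CPM of Erbb3 against 10.1 CPM in the other nuclei of cortex 1, 24.7 against 18.3 CPM in hippocampus 1 and 68.5 against 13.8 CPM in hippocampus 2. List-high nuclei were higher in all 3 libraries with peaks, by 1.26 ± 0.31 (unadjusted p = 0.0037, adjusted p = 0.34, edgeR, 0.136% of 16218 genes called). Erbb4 gave -0.11 ± 0.07 (unadjusted p = 0.12) and Egfr -0.31 ± 0.13 (adjusted p = 0.53) with the list.

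**Figure D5:**
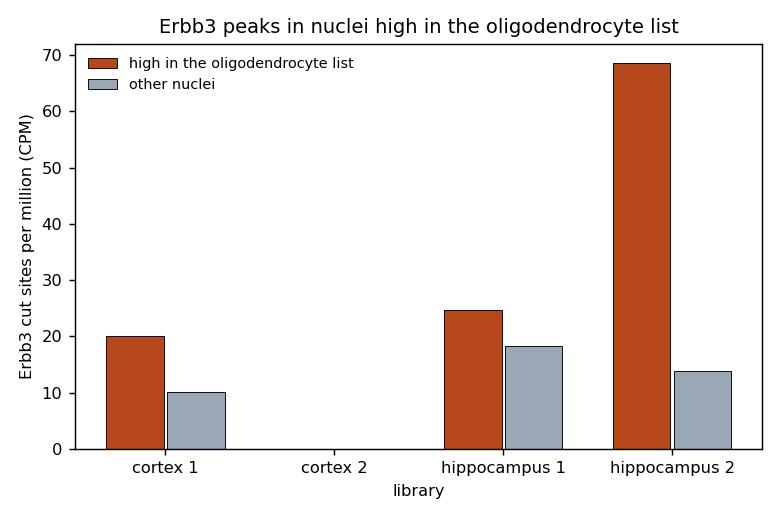
Erbb3 cut sites in CPM over each library's own peaks in nuclei high in the oligodendrocyte lineage list (orange) and in the other nuclei (grey), by library. Bars were 68.5 and 13.8 CPM in hippocampus 2, and cortex 2 had no Erbb3 peak.

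Nrg3 (chr14:38368952-39473088, minus strand), a ligand made largely by neurons that binds Erbb4, spans 1104 kb and had 60 regions, 59 of them in introns and 6 common. It stood at 131 and 88.0 CPM in cortex and 108 and 97.0 CPM in hippocampus, and the groups overlapped. Between classes it was lowest in Adarb2-high nuclei, with 101, 75.0, 99.1 and 83.3 CPM in cortex 1, cortex 2, hippocampus 1 and hippocampus 2. Pvalb-high nuclei had 133, 92.2, 121 and 108 CPM and Sst-high nuclei 130.2, 98.8, 128 and 149 CPM, both above Adarb2-high nuclei in 4 of 4 libraries. The differences were 0.35 ± 0.14 (adjusted p = 0.31) and 0.45 ± 0.16 (adjusted p = 0.14) with thinning, and 0.32 ± 0.07 (adjusted p = 0.0015) and 0.30 ± 0.07 (adjusted p = 0.0061) with the wider gate. The start region (chr14:39471169-39474657), with 70.4, 50.7, 50.0 and 67.4 CPM over all nuclei, differed little between classes, at 0.09 ± 0.10 and -0.02 ± 0.11 in the same contrasts with the wider gate.

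Single introns of Nrg3 differed more than the gene. The region in intron 3 at 925.6 kb (chr14:38546802-38548236) stood at 28.6, 25.3, 46.2 and 27.8 CPM in Sst-high nuclei, above the highest values of the other classes, 15.1 CPM in Pvalb-high and 19.8 CPM in Adarb2-high nuclei. It passed in Sst-high minus Adarb2-high nuclei with thinning (1.78 ± 0.43, adjusted p = 0.0056) and with the wider gate (0.98 ± 0.20, adjusted p = 0.00047). The call with thinning was lost without cortex 1 (adjusted p = 0.13), without hippocampus 1 (0.11) and with another random draw (1.01, adjusted p = 0.18).

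In intron 1 of Nrg3, neighbours at 431.8 and 433.8 kb went with different classes. With the wider gate, the region at 431.8 kb (chr14:39041009-39041599) stood at 12.7, 14.8, 11.4 and 12.6 CPM in Sst-high nuclei, against 5.73, 6.22, 10.5 and 4.96 CPM in Pvalb-high and 4.04, 3.09, 6.88 and 4.07 CPM in Adarb2-high nuclei. Sst-high nuclei did not overlap with either class, and the differences were 1.50 ± 0.28 over Adarb2-high (adjusted p = 0.00016) and, for Pvalb-high minus Sst-high nuclei, -0.95 ± 0.27 (adjusted p = 0.012). The region at 433.8 kb (chr14:39038985-39039533) stood at 14.6, 12.4, 13.1 and 10.5 CPM in Pvalb-high nuclei, above 4.37 to 9.92 CPM in Sst-high and 2.70 to 7.94 CPM in Adarb2-high nuclei. Those differences were 1.04 ± 0.30 (adjusted p = 0.014) and 1.27 ± 0.29 (adjusted p = 0.0016). With thinning none of these 4 differences passed, at 1.00 (adjusted p = 0.45) and -1.12 (0.39) for the first region and 0.85 (0.53) and 1.37 (0.17) for the second. The other common intronic regions of Nrg3, at 366.1 and 480.8 kb, did not pass in any contrast.

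Another intron 1 region of Nrg3 at 344.8 kb (chr14:39128052-39128603), picked after its values were seen, stood with the wider gate at 12.7 and 9.30 CPM in Sst-high nuclei of cortex 1 and hippocampus 1. It stood at 2.08 and 2.90 CPM in Pvalb-high and 2.66 and 2.39 CPM in Adarb2-high nuclei there. In hippocampus 2 its peak covered 1 base and held 0 cut sites, and the fitted difference of 2.13 ± 0.43 between Sst-high and Adarb2-high nuclei (adjusted p = 0.0015) rests on the other 2 libraries. The values of this region with thinning are not given here.

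Nrg1 (chr8:31814551-32884029, minus strand), the neuregulin with the most transcript forms, spans 1069 kb and had 52 regions, 49 in introns and 6 common. Its 4 annotated starts lie at 0, 874.6, 965.6 and 966.4 kb along the gene. It stood at 117 and 73.4 CPM in cortex and 71.2 and 81.5 CPM in hippocampus over common regions. Cortex 1 lay apart from the other 3 libraries, and this held at the starts too. The first start region (chr8:32882995-32885345) stood at 32.4 and 17.0 against 6.52 and 19.4 CPM, the region of the 874.6 kb start (chr8:32007904-32010141) at 27.7 and 8.93 against 6.50 and 16.1 CPM, and the region of the 965.6 kb start (chr8:31917802-31920246) at 15.2 CPM in cortex 1 against 3.47 and 3.49 CPM in hippocampus, with no peak in cortex 2. None passed, and without cortex 1 the estimate of the gene changed from -0.32 to 0.06.

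Of the common intronic regions of Nrg1, those at 590.7 kb (chr8:32292746-32293823) and 593.7 kb (chr8:32290013-32290605) stood at 16.9, 12.8, 12.6 and 16.8 CPM and at 10.1, 12.2, 11.3 and 12.3 CPM, with differences of -0.01 ± 0.29 and 0.08 ± 0.27. The region at 668.8 kb (chr8:32214844-32215562) was lower in hippocampus, with 12.9 and 12.2 against 10.4 and 9.32 CPM (-0.35 ± 0.26, adjusted p = 0.94). The region at 994.0 kb (chr8:31889642-31890346) was higher there, with 11.0 and 13.6 against 19.3 and 13.9 CPM (0.43 ± 0.29, adjusted p = 0.89). In both the groups did not overlap, and the share of all common regions without overlap is not given here. Among regions without a peak in cortex 2, the one at 72.3 kb (chr8:32811370-32812022), picked after its values were seen, stood at 2.87 CPM in cortex 1 against a mean of 12.1 CPM in hippocampus (2.08 ± 0.37, unadjusted p = 0.0019, adjusted p = 0.18). The one at 597.5 kb, picked likewise, stood at 7.08 against 3.81 and 2.69 CPM (-1.12 ± 0.45, adjusted p = 0.41).

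Between classes Nrg1 passed only in Pvalb-high minus Adarb2-high nuclei of the wider gate, at 0.23 ± 0.07 (adjusted p = 0.031, higher in 4 of 4 libraries), against 0.07 ± 0.16 (adjusted p = 0.95) with thinning. Of its common regions, 1 passed, that at 994.0 kb, with 15.6, 22.3, 19.8 and 16.4 CPM in Sst-high and 7.60, 8.83, 17.1 and 12.6 CPM in Adarb2-high nuclei of the wider gate (0.71 ± 0.22, adjusted p = 0.016). That call was not made with thinning (0.48 ± 0.46, adjusted p = 0.70), where the estimate turned to -0.12 without cortex 2. In the region at 72.3 kb Adarb2-high nuclei of the wider gate stood highest in each of cortex 1, hippocampus 1 and hippocampus 2, at 7.46, 16.4 and 17.5 CPM against 1.93, 3.85 and 4.67 CPM in Sst-high nuclei (-1.91 ± 0.37, adjusted p = 0.00083). The values of that region with thinning are not given here.

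Nrg2 (chr18:36017652-36197380, minus strand) encodes another neuregulin that binds Erbb3 and Erbb4, and it held 41 regions, 12 of them common, the most of any member. Over common regions it stood at 237 and 229 CPM in cortex and 236 and 192 CPM in hippocampus. Between classes Pvalb-high nuclei had 252, 276, 238 and 214 CPM, Sst-high nuclei 182, 148, 237 and 139 CPM and Adarb2-high nuclei 200.0, 251, 223 and 217 CPM in cortex 1, cortex 2, hippocampus 1 and hippocampus 2. Pvalb-high exceeded Sst-high nuclei by 0.44 ± 0.12 (adjusted p = 0.0466, higher in 4 of 4 libraries), although hippocampus 1 was even. This call was lost without cortex 1 (adjusted p = 0.39), without cortex 2 (0.47, estimate 0.31) and with DESeq2 (0.11), and with the wider gate it was 0.33 ± 0.07 (adjusted p = 0.00084). The wider gate also gave -0.21 ± 0.07 for Sst-high minus Adarb2-high nuclei (adjusted p = 0.042).

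With the wider gate, 5 of 12 Nrg2 regions were higher in Pvalb-high than in Sst-high nuclei and none lower, whereas with thinning none passed. The 5 were intron 1 regions at 41.8, 43.6, 48.8 and 86.1 kb, with differences of 1.08 ± 0.27, 1.25 ± 0.28, 1.33 ± 0.36 and 0.89 ± 0.23, and the start at 149.0 kb with 0.73 ± 0.23. With thinning the adjusted p was 0.14 at 41.8 kb, 0.44 at 43.6 kb, 0.099 at 86.1 kb and 0.50 at 149.0 kb, and the region at 48.8 kb was not tested. The region at 86.1 kb stood at 15.2, 23.5, 15.9 and 17.7 CPM in Pvalb-high against 6.73, 8.09, 12.2 and 12.6 CPM in Sst-high nuclei and did not overlap. In Pvalb-high nuclei the region at 43.6 kb, picked after its values were seen, was also higher than in Adarb2-high nuclei, by 0.80 ± 0.25 (adjusted p = 0.022). The region at 48.8 kb was also lower in Sst-high than in Adarb2-high nuclei, at -1.80 ± 0.36 (adjusted p = 0.00030), as was the start at 149.0 kb at -0.94 ± 0.23 (adjusted p = 0.0025). The main start region had 48.1 to 63.8 CPM and the last coding exon, picked after its values were seen, 35.9 to 56.1 CPM over all nuclei, the highest regions of the gene, and neither passed in any contrast. Between brain regions the start at 149.0 kb had 20.7 and 15.7 CPM in cortex and 24.0 and 2.19 CPM in hippocampus, with hippocampus 2 far below the others. The intron 1 region at 48.8 kb stood at 7.32 and 11.3 against 5.97 and 3.44 CPM (-0.98 ± 0.47, adjusted p = 0.70). The highest intronic regions, at 129.2 and 74.9 kb with means of 19.9 and 16.8 CPM over libraries, differed little there (-0.0014 ± 0.31 and 0.013 ± 0.25). In Pvalb-high minus Sst-high nuclei they gave -0.0023 ± 0.37 and 0.81 ± 0.50 with thinning. Neither passed in a class contrast with thinning, or in Pvalb-high minus Sst-high nuclei with the wider gate.

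Nrg4 (chr9:55220222-55326844, minus strand), a ligand of Erbb4 best known from brown fat, spans 107 kb and had 7 regions, 2 of them common. It stood at 47.6 and 44.1 CPM in cortex and 34.7 and 44.3 CPM in hippocampus. The start region (chr9:55326142-55327742), which also overlaps the gene Tmem266, carried most of it, at 36.5 and 36.4 CPM in cortex and 22.7 and 37.7 CPM in hippocampus. The region in intron 2 at 15.1 kb (chr9:55311378-55312023) stood at 8.60 and 9.68 against 9.78 and 10.0 CPM. Neither region and no class contrast passed, in either gate. The largest class estimate, 0.41 ± 0.20 for Pvalb-high minus Adarb2-high nuclei (unadjusted p = 0.048, adjusted p = 0.53), came with 55.1, 53.6, 48.7 and 56.4 CPM against 41.7, 47.5, 28.4 and 50.0 CPM.

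The other genes of the pathway were taken from a list of 29, which held the co-receptor Erbb2, 7 other EGF-family ligands, 4 sheddases that release the ligands and 17 adaptors and regulators. Of these, 26 were tested between brain regions and 24 between classes, and edgeR and DESeq2 called 0 of them in the 4 comparisons with the thinned gate. An unadjusted edgeR p below 0.05 came up for 1 of 26 between brain regions (3.50% of all genes) and for 3 of 24 in Sst-high minus Adarb2-high nuclei (11.5% of all). It came up for 0 of 24 in Pvalb-high minus Sst-high (10.9% of all) and in Pvalb-high minus Adarb2-high nuclei (9.43% of all). Erbb2, the partner of neuregulin-bound receptors, had no common region and was not tested. With the wider gate, 3 of 26 passed in Sst-high minus Adarb2-high nuclei, near the 10.0% of all genes called there. None passed in the other 2 contrasts with edgeR, where 5 (Pvalb-high minus Sst-high) and 4 (Pvalb-high minus Adarb2-high) had an unadjusted p below 0.05, against 22.4% and 23.6% of all genes. Lrig1, a membrane protein that restrains ErbB receptors, was higher in Sst-high nuclei (0.40 ± 0.09, adjusted p = 0.0021). Sos2, a Ras exchange factor, and Gab1, a docking protein of activated receptors, were lower (-0.43 ± 0.11, adjusted p = 0.0064, and -0.56 ± 0.17, adjusted p = 0.024). The median difference over the 26 genes in that contrast was -0.03.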

How the data were processed

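Single-nucleus ATAC-seq counts were taken as deposited: whole-number counts of cut sites per peak and nucleus, with no normalization, and a peak list for each of the 4 libraries. According to the submitters' processing notes, Cell Ranger ATAC 1.2.0 and the GRCm38/mm10 genome were used. Peaks had been called by the authors in each library separately and were merged here where they overlapped by at least 1 bp. Counts were summed over the body and 2 kb upstream of each protein-coding gene, so that an overlapping gene shares them. No columns of other series were present (0). Nuclei with under 4000 cut sites in common regions entered no class, which left out 2, 806, 1058 and 171 nuclei of cortex 1, cortex 2, hippocampus 1 and hippocampus 2. A marker's threshold was the smallest count of at least 2 that at most 20% of a library's nuclei reached, and 7, 10, 7 and 2 nuclei that were high for more than 1 marker were left out.

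Sums per library (4) or per class and library (12, of unthinned counts, library as a block) were fitted with the robust quasi-likelihood F test of edgeR 4.0.16 (limma 3.58.1, R 4.3.3) with TMM factors, edgeR's filter on low counts and Benjamini-Hochberg adjustment over all genes or common regions, at a threshold of 0.05. DESeq2 1.42.0 was an alternative, and python 3.11.15 with numpy 2.4.6, scipy 1.17.1 and pandas 2.3.3 did the sums. The fits were also run on simulated counts with the same spread setting for all features, and no result here rests on that run. A floor of 3 counts covers counting error only.

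Some single genes of the marker lists are not reported here. The genes, the marker and pathway lists and the motifs were chosen with earlier results of these data known. Described regions were those at annotated starts, the 4 (Erbb4, Nrg1 and Nrg3) or 2 (other genes) intronic common regions with the highest mean CPM, and the 2 or 1 with the smallest p in each direction of each contrast. The regions of Erbb3, which has no common region, and the Nrg1 start without a peak in cortex 2 were added to these, and other regions described with values are marked as picked after their values were seen. Pairing of the libraries by number was checked, and deviations of same-numbered libraries from the group means had a correlation of -0.16 over 14645 genes, so no block was used. Other normalizations, filters, gates, random draws and left-out libraries were tried.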

Additional observations from a re-analysis of the deposited data

Results flagged for a closer look

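The intron 1 region of Egfr at 20.8 kb stood out because its class difference lay on opposite sides of 0 in the brain regions with the thinned gate. In cortex, Sst-high nuclei had 8.51 and 9.71 CPM and Adarb2-high nuclei 9.12 and 13.2 CPM, lower in Sst-high nuclei in both libraries. In hippocampus, Sst-high nuclei had 4.78 and 9.28 CPM and Adarb2-high nuclei 2.17 and 3.38 CPM, higher in Sst-high nuclei in both libraries. The mean difference over the 4 libraries was 1.10 CPM. The difference between brain regions was not tested for this region. Sst-high nuclei of the wider gate were higher in all 4 libraries.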

How the results depend on the processing

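Each group had 2 libraries. With thinning the classes were small, with 15 Sst-high nuclei in hippocampus 2.

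Numbers of genes called out of 6, against 1 in each contrast, changed as follows. In Pvalb-high minus Sst-high nuclei it was 0 with DESeq2, with regions covered to at least 50% in each library, with thinning to 2000 and with high nuclei set against all other nuclei, 3 with the wider gate, and 0 to 1 leaving out a library (0 without cortex 1 or cortex 2). In Pvalb-high minus Adarb2-high nuclei it was 0 with the 50% covered regions and with thinning to 2000, 3 with the wider gate, and 0 to 1 leaving out a library (0 without cortex 1, cortex 2 or hippocampus 1). In Sst-high minus Adarb2-high nuclei it was 0 with thinning to 2000, 3 with the wider gate and 2 with another random draw. The wider gate with each library's own peaks, chosen after seeing the data, gave 3, 2 and 4 of 7.

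Of the regions, in Pvalb-high minus Sst-high nuclei (0 called) the wider gate gave 14, another draw 1, and the wider gate in 3 libraries 11. In Pvalb-high minus Adarb2-high nuclei (0 called) they gave 7, 0 and 13, and high nuclei against all others gave 1. In Sst-high minus Adarb2-high nuclei (5 called) the count was 1 of 18 regions covered to 50%, 0 of 5 with thinning to 2000, 13 with the wider gate, 2 of 29 with another draw, 0 with high nuclei against all others, 3 of 51 in 3 libraries and 25 of 89 there with the wider gate. Leaving out a library gave 2 to 6, with 2 without cortex 1, cortex 2 or hippocampus 1 and 6 without hippocampus 2. The 3-library sets were chosen after seeing the data. RLE factors, library totals, no filter on low counts and a 10% cap gave the same counts of genes and regions in all 3 class contrasts.

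With the replicate number as a block in the pairing check, 0 genes and 0 regions passed between hippocampus and cortex, as without it. Crossed pairing, chosen after seeing the data, gave 0 genes and 1 of 38 regions.

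Estimates that changed sign, none past the threshold, were these. Between hippocampus and cortex, Nrg3 was 0.23 over own peaks. Leaving out a library gave -0.35 to 0.22 for Nrg3, -0.28 to 0.022 for Nrg2, -0.61 to 0.057 for Nrg1 and -0.027 to 0.20 for the Nrg4 region at 15.1 kb, with the other sign without cortex 1 (Nrg3, Nrg1 and the Nrg4 region) or hippocampus 2 (Nrg2). Nrg1 was 0.14 with the 50% covered regions. In Pvalb-high minus Sst-high nuclei, Nrg3 was 0.15 with the 50% covered regions and 0.021 with the wider gate, Nrg4 -0.062 with another draw, and Nrg1 0.15 with thinning to 2000, 0.087 with the wider gate, 0.23 with another draw and 0.031 with the wider gate and own peaks. In Pvalb-high minus Adarb2-high nuclei, Erbb4 was -0.022 with the 50% covered regions, -0.052 with another draw, -0.0046 over own peaks and -0.020 to 0.13 leaving out a library, negative without hippocampus 1 or 2. Nrg3 was -0.098 with thinning to 2000, and Nrg1 was -0.061 with the 50% covered regions, -0.073 with thinning to 2000 and -0.099 to 0.21 leaving out a library, negative without hippocampus 1. In Sst-high minus Adarb2-high nuclei, thinning to 2000 gave -0.22 for Nrg1 and -0.32 for Nrg4, and the Nrg1 region at 994.0 kb spanned -0.12 to 0.88 leaving out a library, negative without cortex 2.

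Over all settings, 744 single-gene or single-region values kept their direction and side of the threshold, 42 newly passed, 23 no longer passed and 25 changed sign, and the cause of these changes was not tested. Over all genes edgeR called 190, 143 and 254 and DESeq2 116, 65 and 194 in the 3 class contrasts, and the wider gate 1584, 1720 and 1468.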
